A study of Caenorhabditis elegans with 2 samples.

Results

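The X chromosome held 327 of the 1500 strongest ChIP-seq regions of ELT-3, a transcription factor of the worm epidermis, in larvae of Caenorhabditis elegans. These 327 regions, called X members below, were selected on the signal of the pooled list on the ce11 build: the 21761 regions of that list were ordered by signal, the first 1500 were kept, and those on the X chromosome were taken. The deposit describes that list as peaks with background regions, and 81 of the 327 passed the authors' irreproducible discovery rate threshold. A region is thus not shown to be bound by being a member. The other 1173 of the 1500, on chromosomes I to V, are called autosomal members, and the 4254 X regions below rank 1500 weaker X regions. ChIP-seq, in which DNA bound by a tagged protein is pulled down with an antibody and sequenced, was done on whole L3 larvae of mixed sex of strain OP75, genotype unc-119(ed3) III; wgIs75. The transgene makes ELT-3 fused to enhanced green fluorescent protein. The labels give the antibody as elt-3 in 1 field and the target as the fusion in another, so which of them the antibody recognised is not known here. There were 2 biological replicates of this 1 genotype and stage, with 30000 regions in each replicate's list, and no comparison between conditions. The sources used here give neither read depth nor the scaling of the signal, and the control library was not used here. Whole larvae hold all tissues, so the cells in which a region was bound cannot be told from these lists.

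ELT-3 belongs to the GATA family, zinc finger proteins that bind DNA at the motif WGATAR, where W stands for A or T and R for A or G. It is best known as a regulator of epidermal and cuticle genes. The X chromosome is present in different number in hermaphrodites and males, and a dosage compensation complex evens out its output by lowering expression from both X chromosomes of hermaphrodites. That complex loads onto X at recruitment sites that carry a motif called MEX, and spreads from them along the chromosome. The core of the MEX motif was searched here as GCGCAGGG.

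The core was present within 50 bp of the centre of 10 X members (3.06%, 95% Wilson interval 1.67 to 5.54) and of none of the 1173 autosomal members, and these 10 windows are shown because the clearest sequence difference between X and the autosomes lay in them. Intervals cover counting error over regions only, and a count of 0 of 1173 allows a share of up to 0.256%. Each window spans 101 bases, is read from RefSeq's WBcel235 assembly (ce11) on the strand that carries the core, and has the core in capitals.
X rank 1, between genes near W02H3.3, chrX:11094137-11094237, minus strand: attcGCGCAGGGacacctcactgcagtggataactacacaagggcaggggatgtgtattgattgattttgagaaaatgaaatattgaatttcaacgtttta
X rank 4, coding exon of pks-1, chrX:5429527-5429627, plus strand: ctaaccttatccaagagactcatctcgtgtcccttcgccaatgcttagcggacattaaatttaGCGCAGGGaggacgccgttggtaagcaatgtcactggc
X rank 7, intron of mom-1, chrX:6296526-6296626, plus strand: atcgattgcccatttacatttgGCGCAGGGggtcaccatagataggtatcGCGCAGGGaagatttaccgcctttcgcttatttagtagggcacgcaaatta
X rank 8, between genes near T24D8.6, chrX:2364871-2364971, minus strand: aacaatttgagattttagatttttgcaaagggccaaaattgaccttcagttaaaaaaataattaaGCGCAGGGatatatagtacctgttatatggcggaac
X rank 14, between genes near gtr-1, chrX:806668-806768, plus strand: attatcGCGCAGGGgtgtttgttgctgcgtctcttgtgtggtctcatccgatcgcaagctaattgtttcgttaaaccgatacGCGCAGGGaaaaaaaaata
X rank 17, intron of Y41G9A.17, chrX:2997098-2997198, minus strand: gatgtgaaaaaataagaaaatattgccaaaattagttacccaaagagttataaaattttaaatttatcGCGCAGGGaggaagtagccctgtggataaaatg
X rank 25, promoter window of nspc-17, chrX:14525853-14525953, minus strand: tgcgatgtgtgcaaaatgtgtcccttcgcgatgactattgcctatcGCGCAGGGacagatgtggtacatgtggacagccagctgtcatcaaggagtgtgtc
X rank 29, between genes near xol-1, chrX:8036311-8036411, minus strand: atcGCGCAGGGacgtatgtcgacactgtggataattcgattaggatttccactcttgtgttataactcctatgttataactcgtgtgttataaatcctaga
X rank 87, between genes near F20B6.9, chrX:4208672-4208772, plus strand: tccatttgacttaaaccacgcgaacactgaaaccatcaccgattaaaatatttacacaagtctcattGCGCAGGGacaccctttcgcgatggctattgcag
X rank 104, intron of Y41G9A.17, chrX:2997297-2997397, minus strand: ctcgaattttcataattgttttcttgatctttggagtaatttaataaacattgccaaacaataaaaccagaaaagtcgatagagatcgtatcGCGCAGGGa

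The windows of ranks 7 and 14 each held 2 copies of the core. Ranks 17 and 104 are overlapping regions with a copy each, so the 10 members stand for 9 separate places after overlapping regions were merged.

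The GATA motif was the other motif of interest, present within 50 bp of the centre of 129 X members (39.4%, 34.3 to 44.8). The first 4 windows below show members with it, in capitals, on the plus strand, so that a motif of the minus strand appears as its reverse complement. They were chosen as strong members with 1 or more copies and as a region inside elt-3 itself.
X rank 16, between genes near R03E9.2, chrX:6736441-6736541, plus strand: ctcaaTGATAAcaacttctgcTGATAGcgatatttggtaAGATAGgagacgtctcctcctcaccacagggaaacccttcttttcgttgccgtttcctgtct
X rank 12, intron of abts-4, chrX:6749436-6749536, plus strand: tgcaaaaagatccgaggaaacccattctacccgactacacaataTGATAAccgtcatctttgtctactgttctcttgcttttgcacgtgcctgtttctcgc
X rank 20, between genes near mdl-1, chrX:6743927-6744027, plus strand: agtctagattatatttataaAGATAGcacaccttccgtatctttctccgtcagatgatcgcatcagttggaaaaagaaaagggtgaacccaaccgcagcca
X rank 46, intron of elt-3, chrX:13936726-13936826, plus strand: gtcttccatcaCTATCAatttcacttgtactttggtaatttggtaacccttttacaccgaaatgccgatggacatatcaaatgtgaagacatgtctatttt

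The next 3 windows, of the strong members near ZK899.6 and puf-9 and of the strongest one in elt-3, held neither motif. They are shown because several of the strongest X members were of this kind.
X rank 2, between genes near ZK899.6, chrX:9465791-9465891, plus strand: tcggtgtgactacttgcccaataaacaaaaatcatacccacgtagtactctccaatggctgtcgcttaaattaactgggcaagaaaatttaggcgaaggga
X rank 5, promoter window of puf-9, chrX:5841207-5841307, plus strand: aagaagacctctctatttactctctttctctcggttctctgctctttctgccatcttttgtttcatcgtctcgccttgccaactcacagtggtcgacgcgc
X rank 9, intron of elt-3, chrX:13938083-13938183, plus strand: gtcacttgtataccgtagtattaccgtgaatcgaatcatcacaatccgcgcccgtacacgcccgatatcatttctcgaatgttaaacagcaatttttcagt

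X members had signals from 120 down to 29.9, as the authors deposited them. The strongest (chrX:11094009-11094364) was rank 6 of the pooled list, and X supplied 3 of the first 10 pooled ranks, 10 of the first 25, 23 of the first 50 and 42 of the first 100. Their median signal was 36.7, against 35.0 for autosomal members. The last X member (chrX:5467859-5468214) was also the last of the 1500, with a signal of 29.9006, and the first X region outside (chrX:12759619-12759974) was rank 1504, with 29.8896. The signal chose the members, so these values are descriptive. All regions were 356 bp wide, and 18 X members overlapped another, which leaves 318 after merging. Regions that overlap or lie side by side share fragments, and regions are not replicates, so the tests below describe the spread over regions within this experiment.

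The X chromosome carried 21.8% of the 1500 regions, close to its 21.1% of all pooled regions (4581) and above its 17.7% of the length of the chromosomes. That is 18.5 members per Mb, between 10.7 on chromosome IV and 24.8 on chromosome I. In the list that passed the authors' irreproducible discovery rate (IDR) threshold, X members numbered 81. Those are 24.8% of X members, against 17.0% of autosomal members (199 of 1173) and 18.7% of all 1500. The IDR list holds the strongest pooled regions, so this restates that X members reach further up the ranking.

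X members were spread over the length of the chromosome. Counts per Mb ranged from 6 in the first to 32 in the 14th, and the last, incomplete Mb held 14. Without the 9 members within 20 kb of elt-3 the 14th Mb held 23, and the highest count was then 27, in the 16th. The 7th Mb followed with 26. Neighbouring centres lay a median of 24370 bp apart, and the largest stretch without a member was 557841 bp, between positions 7322936 and 7880777.

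The members with the MEX core were at the top of the X ranking. They held X ranks 1, 4, 7, 8, 14, 17, 25, 29, 87 and 104, so 6 of the first 20 X members had the core, and 8 of the 10 were in the IDR list. Over all 1500 strongest regions the share was 0.667%. X members and autosomal members differed by 3.06 percentage points (1.63 to 5.54; two-sided Fisher's exact test, adjusted p = 1.52e-06 over 7 motifs). The core was also at 0 of the 4254 weaker X regions, which allows up to 0.0705%, and at 0 of the 327 control windows, of the same size and 500 bp to the right of X members, which allows up to 0.917%. The members with the core lay in every kind of place: 5 between genes, 3 in introns, 1 in a coding exon and 1 in a promoter window. Only rank 7, in an intron of mom-1, also had WGATAR. Regions of other factors were not used here, so whether these places are particular to ELT-3 was not tested.

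With 1 mismatch allowed in the core, 27 X members (8.26%) and 26 autosomal members (2.22%) had it, against 5 of the X control windows (1.53%). The core occurs at 81 places on X (4.57 per Mb) and 233 on the autosomes (2.82 per Mb). Of the X places, 12 lay within 50 bp of the centre of an X member and the other 69 had no pooled region within that distance. Of the autosomal places, 6 lay within 50 bp of a pooled region and none of these was among the 1500 strongest. Bases next to the core differed too. TC preceded the core at 7 of the 12 X places at members (58.3%), at 12 of the other 69 on X (17.4%) and at 6 of the 233 on autosomes (2.58%). An A followed it at 10 (83.3%), 24 (34.8%) and 79 (33.9%) of them. These flanks were chosen after the windows were seen and were not tested.

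All 8-mers were also compared on these same windows, after they had been seen, to place the core among other words. The comparison rests on the same members and is no separate support for the core. Of 28935 8-mers, 3 (0.0104%) differed between X and autosomal members, all higher on X and all overlapping the core. CCCTGCGC, the core read on the other strand, was in 10 X members and no autosomal member (Fisher's exact test, adjusted p = 0.00629). CGCAGGGA was in 12 X members and 2 autosomal members (exact adjusted p = 0.00837), and CTGCGCGA in 8 X members and 0 autosomal members (exact adjusted p = 0.0460). Together they were in 13 X members (3.98%), of which 10 were among the 66 strongest, and in 2 autosomal members. On the list of replicate 1 (its first 1500) 2 8-mers passed, both among these 3. On that of replicate 2 none passed by Fisher's exact test, with 609 at an unadjusted p under 0.05. There the core was at 7 of 317 X regions and 0 of 1183 autosomal ones (adjusted p = 0.514 over all 8-mers by the exact test, and 1.79e-05 unadjusted).

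**Figure D1:**
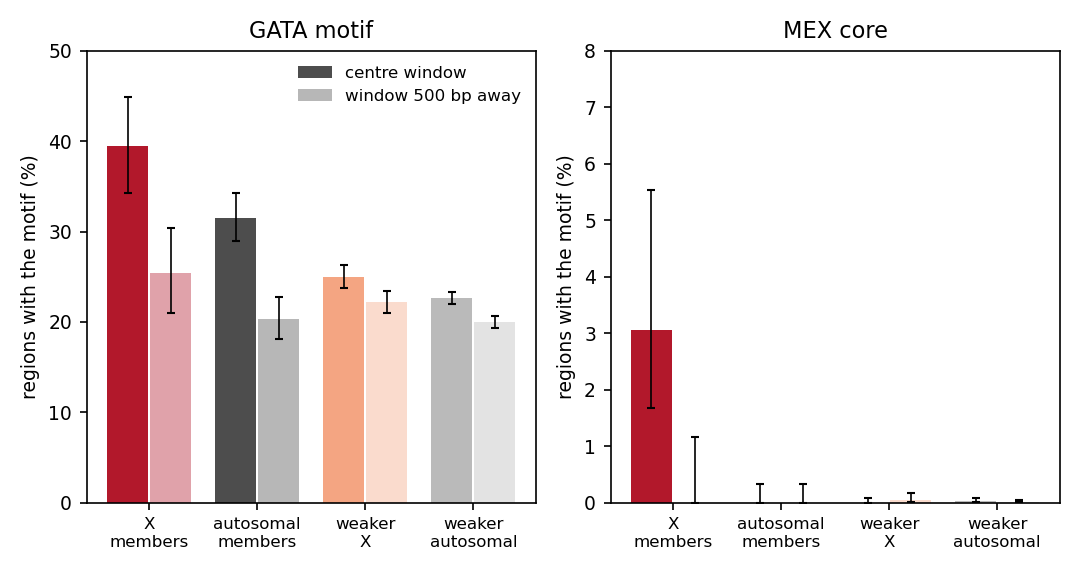
Share of regions with the GATA motif (left) and the MEX core (right) within 50 bp of the region centre (solid bars) and in a window of the same size 500 bp to the right (pale bars). Bars are percent of regions in each set, error bars 95% Wilson intervals. The GATA motif was at 39.4% of X members and 25.4% of their control windows, and the MEX core at 3.06% of X members and at 0 autosomal members.

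X members had the GATA motif more often at their centres than beside them. It was in 129 centre windows and 83 control windows (25.4%, 21.0 to 30.4), in the centre window alone of 100 members and in the control window alone of 54 (exact McNemar test, adjusted p = 0.000392 over 3 tests). The difference of 14.1 points was 8.83 points on replicate 2 alone, that is for the X regions among its own 1500 strongest (exact McNemar p = 0.0167, unadjusted). The weaker X regions had it at 1063 of 4254 centres (24.99%), for an odds ratio of 1.96 with interval 1.54 to 2.48 (adjusted p = 1.31e-07 by Fisher's exact test). The difference of 14.5 points was 9.60 points on replicate 2 alone (exact p = 0.000163, unadjusted). The stricter GATAAG was at 51 X members (15.6%), 13 of their control windows (3.98%) and 211 weaker X regions (4.96%). Base composition moved with this: the median GC content was 39.6% in X members, 37.6% in autosomal members and 32.7% in weaker X regions. Its part in the motif shares was not tested.

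Against the autosomes the difference in the GATA motif was small and depended on the settings. X members had 39.4% and autosomal members 31.5% (370 of 1173), a difference of 7.91 points (2.09 to 13.9; Fisher's exact test, adjusted p = 0.00796), with 33.3% over all 1500. The single autosomes ranged from 25.9% on chromosome I to 41.6% on chromosome V, so X lay inside their range. Without chromosome I the difference was 5.28 points (exact p = 0.100), on replicate 2 alone 5.37 (exact p = 0.0704), on replicate 1 alone 1.68 (exact p = 0.608), and within the 280 regions of the IDR list it turned to -1.51 points (exact p = 0.895). The family of 7 motifs held GATA, the MEX core and 5 others. Of these 5, GAGAGA was lower in X members, at 32 (9.79%), than in autosomal members, at 185 (15.8%; Fisher's exact test, adjusted p = 0.0186 over 7 motifs). The differences for GATAAG, for the E-box CACGTG, for ACGCAG and also for GACGCA did not pass (exact adjusted p from 0.126 to 0.801). These 5 motifs were picked with earlier results of these data known, so their p-values are no independent support.

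**Figure D2:**
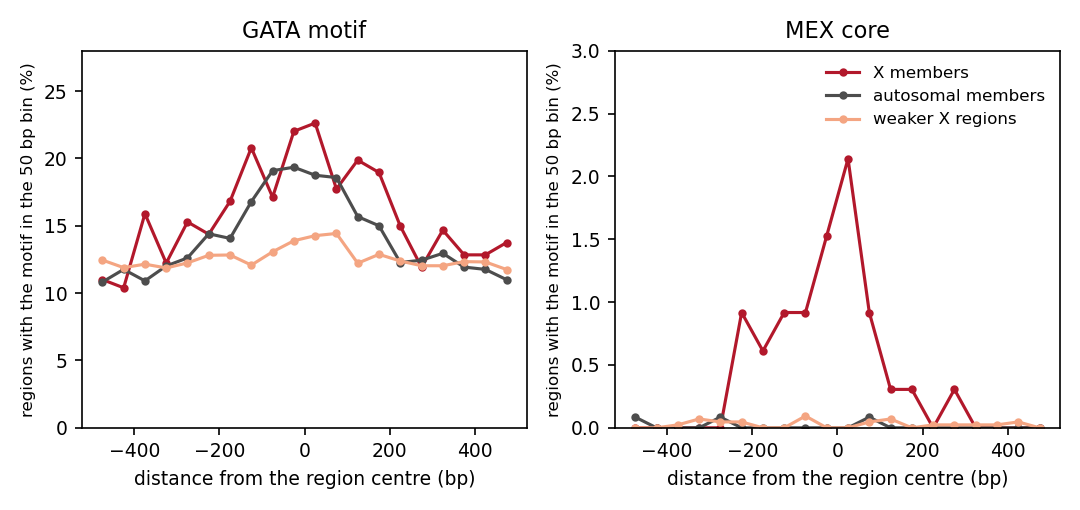
Share of regions with the GATA motif (left) and the MEX core (right) in 50 bp bins from 500 bp left to 500 bp right of the region centre, for X members, autosomal members and weaker X regions. The GATA motif peaked around the centre in X and autosomal members, and the MEX core peaked there in X members and stayed near 0 in the other sets.

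Within the X members the 2 motifs were spread differently over the ranking. In 5 bins of 65 or 66 members from strongest to weakest, 39.4%, 50.8%, 39.4%, 30.8% and 36.9% had WGATAR, and their control windows 18.2%, 26.2%, 19.7%, 26.2% and 36.9%. The excess over the control window was thus seen in the stronger bins and was 0 in the last one. The MEX core was in 8, 2, 0, 0 and 0 members of the same bins. By place, WGATAR was at 13 of 28 members in exons (46.4%; 1 control window), at 49 of 113 between genes (43.4%; 37), at 34 of 88 in introns (38.6%; 20) and at 33 of 98 in promoter windows (33.7%; 25). The bins and places hold few members each, and their differences were not tested.

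**Figure D3:**
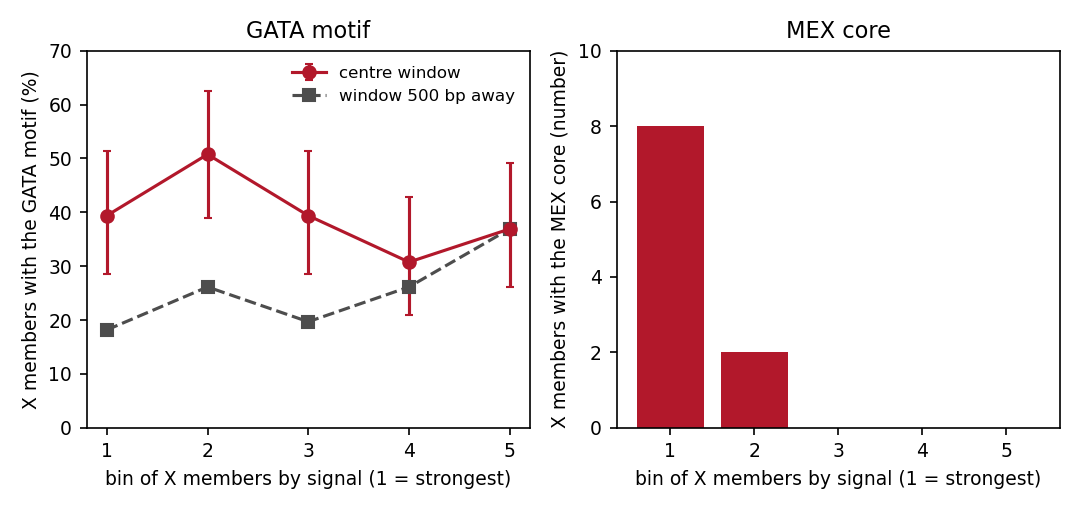
X members in 5 bins by pooled signal, from strongest (1) to weakest (5). Left, percent with the GATA motif in the centre window (circles, with 95% Wilson intervals) and in the window 500 bp away (squares), right, number with the MEX core. The core was in 8 members of the first bin and 2 of the second.

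X members lay in promoters, introns and intergenic stretches in similar numbers. A promoter window began 1000 bp before a protein-coding gene's 5′ end and ended 200 bp after it, and regions were placed by their centre. Promoter windows held 98 X members (30.0%, 25.3 to 35.1), introns 88 (26.9%, 22.4 to 32.0), intergenic stretches 113 (34.6%, 29.6 to 39.9) and exons including untranslated regions 28 (8.56%, 5.99 to 12.1). Those places make up 17.6%, 29.0%, 32.3% and 21.1% of the bases of X. Promoter windows held 30.0% of X members against 19.6% of weaker X regions, for an odds ratio of 1.75 with interval 1.35 to 2.26 (adjusted p = 4.38e-05 over 5 tests by Fisher's exact test). The difference of 10.3 points was 5.45 points on replicate 2 alone (exact p = 0.0181, unadjusted). Autosomal members showed the same kind of difference, 32.7% against 24.7% of weaker autosomal regions (odds ratio 1.48; Fisher's exact test, adjusted p = 1.81e-08).

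Between X and autosomal members the promoter and intron shares did not differ detectably. The promoter share of X members minus that of autosomal members was -2.68 points (-8.13 to 3.12; Fisher's exact test, adjusted p = 0.480), and for introns the difference was -1.22 points (-6.46 to 4.42; adjusted p = 0.676 by the exact test). Intergenic stretches held 34.6% of X members and 26.9% of autosomal members, 7.70 points more (2.11 to 13.6; Fisher's exact test, adjusted p = 0.0116). Intergenic bases also make up 32.3% of X and 23.5% of the autosomes, and the single autosomes ranged from 22.4% on chromosome III to 35.1% on chromosome IV. Without chromosome I the difference was 5.65 points (exact p = 0.0642), and on replicate 1 alone 4.29 points (exact p = 0.136). Among the 66 strongest X members 31 were intergenic (47.0%). The median distance of an X member to the nearest 5′ end was 1556 bp, against 1400 bp for autosomal members, and 136 X members (41.6%) lay over 2 kb away, against 39.1% of autosomal members.

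**Figure D4:**
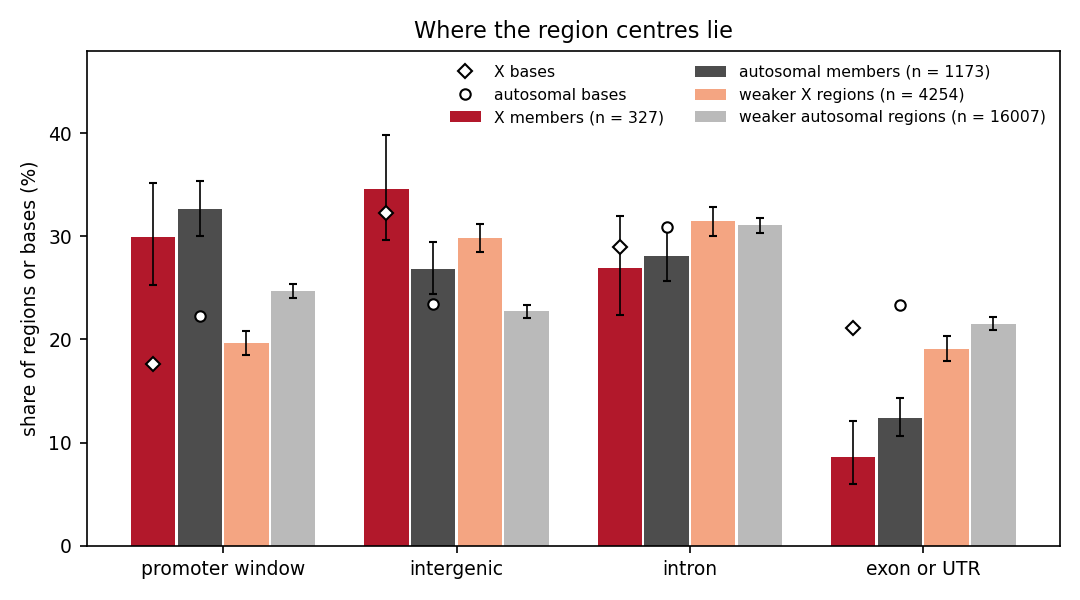
Share of regions by the place of their centre, for X members, autosomal members and the weaker regions of X and of the autosomes (bars, percent of regions, with 95% Wilson intervals). Diamonds and circles give the share of bases of X and of the autosomes in each place. Promoter windows held 30.0% of X members and 19.6% of weaker X regions.

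The strongest X members lay in or near the genes named here, many of them between genes. The strongest of all, with the MEX core and a signal of 120, was between genes, 3999 bp past the 5′ end of W02H3.3. The next, near ZK899.6 (chrX:9465663-9466018), had a signal of 119.8 and neither motif, and the one near F55G7.5 (chrX:11937310-11937665) had 111.8. Rank 4, inside pks-1, a polyketide synthase gene, in coding sequence (chrX:5429399-5429754), had a signal of 109.8 and the core. Rank 5 lay 335 bp upstream of puf-9 (chrX:5841079-5841434), which encodes an RNA-binding protein of the Pumilio family that acts in developmental timing, with a signal of 102.7. The member in an intron of mom-1 (chrX:6296398-6296753), whose product is needed for secretion of Wnt signals, had 99.0. The remaining ones of the first 15 were near K02D3.1, T24D8.6, elt-3, nhr-14, R03E9.2, in an intron of abts-4, a bicarbonate transporter gene, at the promoter window of T24D3.2, and near gtr-1 and F19H6.5. Their signals ran from 101.4 to 85.4. In the replicates' own lists the member near W02H3.3 had signals of 84.5 in replicate 1 and 34.2 in replicate 2, that in pks-1 60.0 and 47.3, that at puf-9 60.7 and 34.6, and the strongest one in elt-3 53.7 and 41.3. The value of replicate 1 was the higher one for each of these 4, and the scaling between the lists is not known.

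Beyond these 15, the members with the core lay in an intron of Y41G9A.17 (ranks 17 and 104), 722 bp upstream of nspc-17 (rank 25), 4952 bp upstream of xol-1 (rank 29) and 1237 bp upstream of F20B6.9 (rank 87). xol-1 is the switch gene of sex determination that responds to the number of X chromosomes. These genes were named for their motif and not by the rule, with their values known. The fixed list of sex determination and dosage compensation genes has 7 genes on X. None of the 7 had an X member in its promoter window or body. Of all protein-coding genes on X 6.74% had one (184 of 2731). With 7 genes, a count of 0 cannot be told from that share.

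Near elt-3 itself there were 9 X members within 20 kb. The gene (WBGene00001251) spans 13934874 to 13941216 of X on the plus strand. Its introns held 5 of them, with signals of 93.4, 68.8, 63.5, 30.5 and 30.4 at 3259, 2626, 1902, 2113 and 4679 bp downstream of the 5′ end. The sixth lay 6572 bp downstream, just past the end of the gene, with a signal of 40.9. The other 3 were upstream of ekl-5, meg-1 and alg-1, the last a gene for an Argonaute protein of the microRNA pathway, with signals of 80.8, 35.6 and 38.9. WGATAR was at 4 of the 9, those at 1902, 2113 and 4679 bp in the introns and the one near meg-1, and none had the MEX core. Because the worms also carried elt-3 as a transgene, binding at the native gene, binding at the transgene and extra copies of its DNA cannot be told apart. Without these 9, X members had WGATAR at 39.3% of centres and 25.5% of control windows and the core at 3.14%, and the share in promoter windows stayed at 98 members, now of 318.

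Many X members lay close together. With members chained where neighbouring centres were at most 5 kb apart, 151 of the 327 (46.2%) fell into 59 groups of 2 or more, and 19 groups had 3 or more. On the autosomes the share ran from 29.3% on chromosome III to 47.3% on chromosome I. Chromosomes I and X also had the most members per Mb (24.8 and 18.5), and the share was not adjusted for this. The share depends on the chaining distance and on the replicate, and was 25.2% for the 317 X regions among the 1500 strongest of replicate 2 alone. Without the members near elt-3 it was 45.6%, and with overlapping regions merged 43.1%.

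The largest groups had 6 members each. That in elt-3 spanned 5026 bp. Another, from 2889566 to 2893627, covered B0410.3 and introns of vang-1, which encodes a planar cell polarity protein, and of F52B10.3. Its strongest member, in the 5′ UTR of B0410.3, had a signal of 84.3 and WGATAR, and its weakest had 32.1. The last of them ran over the lipocalin genes lpr-3, lpr-4, lpr-5 and lpr-6 (11057050 to 11067479), whose products include proteins of the apical matrix that lines epithelia. It had a member in the promoter window of each of these genes, with signals of 62.3 at lpr-3, 44.0 at lpr-5, 40.4 at lpr-4 and 35.9 at lpr-6, and WGATAR at 4 of the 6. Smaller groups of 5 lay at mxl-3, a basic helix-loop-helix factor gene, and of 4 at the nuclear hormone receptor genes nhr-3 and nhr-48 and at daf-9 with bca-1. These too were named with their values known.

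Of the 2731 protein-coding genes on X, 97 (3.55%) had an X member in their promoter window and 184 (6.74%) in the promoter window or the gene body, and the lists below are read against these shares. No list was tested, since the lists were chosen with earlier results known. Longer gene bodies offer more room for a member, and gene length was not taken into account. Some genes held several members: elt-3 had 5, H18N23.2, scd-1 and nhr-27 had 4 each, and K08B5.1, ZK470.2 and gei-3 had 3 each. Those of gei-3 were shared with nhr-27, which it overlaps and which is 102756 bp long.

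Several cuticle and apical matrix genes had an X member. Of the 11 genes on X in the list for cuticle processing and apical matrix, 5 had a member in promoter window or body, 3 of them in the promoter window. These were dpy-6, a mucin-like gene needed for body shape, with a signal of 65.1 at 374 bp from the 5′ end, lpr-3 with 62.3, and the patched-related gene ptr-4 with 33.8. The moulting gene mlt-9 had a member in an intron (38.2) and the hedgehog-related gene wrt-2 a pair in coding exons (32.0 and 30.6). Of 30 cuticle collagen genes on X, 2 had a member, col-41 (32.6) and col-167 (33.7), both in the promoter window. That is 6.67% of them, close to the 6.74% of all genes on X. The antimicrobial peptide gene cnc-8, the single gene of its list on X, had one 51 bp from its 5′ end (35.5). Of 3 stress genes on X, osm-11, which encodes a secreted protein of the osmotic stress response, had one at 375 bp with a signal of 76.3.

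Regulator genes with an X member included nuclear hormone receptors and heterochronic genes. Of 27 nuclear hormone receptor genes on X, 9 had a member, 4 of them in the promoter window. The strongest were in introns of nhr-14 (83.3), nhr-91 (48.2) and nhr-3 (44.9), followed by nhr-27 with 39.4 and nhr-48 with 38.8. Of 6 heterochronic genes, which time larval development, 4 had a member: puf-9 in the promoter window (102.7), lin-14 in an intron (52.0), daf-12 in the 3′ UTR (33.2) and the casein kinase gene kin-20 in introns (30.7 and 30.4). The daf-12 member lay 30965 bp from the gene's 5′ end and within 200 bp of a tRNA gene, and daf-12 is also counted among the receptors. Among 6 Wnt and body size genes mom-1 had a pair in introns (99.0 and 41.3), and so did sma-9, a zinc finger gene of the body size pathway (38.3 and 38.0). Of 2 ribosomal protein genes on X, rpl-11.2 had one in its promoter window (41.8).

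The marker lists of other tissues are short on X. None of 13 intestine markers and none of 10 body wall muscle markers on X had a member in promoter window or body. Of 7 genes in the pharynx list 1 had a member (ajm-1, 43.5 in an intron), and of 20 neuron markers 1 (egl-36, 32.4 in an intron). The product of ajm-1 lies at cell junctions of epithelia in general, so this gene is not particular to the pharynx. With so few genes, neither a count of 0 nor a count of 1 (14.3% of the pharynx list and 5% of the neuron list) can be told from the 6.74% of all genes on X. Of 4 GATA factor genes and 3 epidermal regulator genes on X, elt-3 was the one with members in both lists. The germline and sperm list had no gene on X.

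Transfer RNA genes lay near more X members than autosomal members. Within 200 bp of a tRNA gene were 8 X members (2.45%) and 5 autosomal members (0.426%), for an odds ratio of 5.85 with interval 1.67 to 22.9 (adjusted p = 0.0172 over 8 classes of noncoding genes by Fisher's exact test). Those stretches make up 0.680% of X and 0.185% of the autosomes, and 63 weaker X regions (1.48%) were in them. The test did not account for this difference in bases, and the difference from weaker X regions was not tested. The signals of the 8 were from 33.2 to 60.0. The other 7 classes, among them snoRNA with 0 X members and 14 autosomal members, did not pass (exact adjusted p from 0.145 to 1).

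The replicates ranked the X members differently. A summit within 100 bp was found for 297 in the list of replicate 1 and for 270 in that of replicate 2, with median ranks of 770 and 1223.5. In the 1500 strongest of replicate 1 were 193 X members (59.0%, 53.6 to 64.2), against 590 autosomal members (50.3%) and 52.2% of all 1500. In replicate 2 there were 147 X members (45.0%, 39.7 to 50.4), against 477 autosomal members (40.7%) and 41.6% of all 1500. In both there were 74 (22.6%, 18.4 to 27.5), against 181 autosomal members (15.4%) and 17% of all, and in neither 61. The pooled list was made from both replicates, so a match is built in, and these shares are descriptive. Over the 240 X members found in both lists, the replicate signals had a Spearman's rho of 0.101. It was -0.0791 over 853 autosomal members and -0.0361 over 1093 of all 1500, so a low value was not particular to X. These values are across regions of the same 2 libraries that had been chosen on their pooled signal. Without the members near elt-3 the shares were 58.8% and 44.3%.

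Of the members with the MEX core, 6 were within rank 500 of both replicates. Their ranks in replicates 1 and 2 were 5 and 48 near W02H3.3, 20 and 8 in pks-1, 9 and 430 in mom-1, 46 and 9 near T24D8.6, 33 and 81 near gtr-1, and 71 and 21 at the stronger member of Y41G9A.17. Those at nspc-17 and near xol-1 were 8 and 21 in replicate 1 and had no summit within 100 bp in replicate 2, where they overlapped the regions of rank 7 and 93. The member near F20B6.9 was rank 2047 and 107, and the weaker one of Y41G9A.17 rank 140 and 11001.

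Among the 100 strongest of both replicates were 16 of the 327 X members, against 22 of the 1173 autosomal members and 38 of all 1500. The 16 X members are named here. Besides 5 of those with the core (W02H3.3, pks-1, T24D8.6, gtr-1 and Y41G9A.17), these were the members near ZK899.6 (ranks 3 and 16 in replicates 1 and 2), F55G7.5 (14 and 18), puf-9 (19 and 47), K02D3.1 (29 and 4), F19H6.5 (43 and 54), R03E9.2 (81 and 20), mdl-1 (68 and 32), the strongest in elt-3 (37 and 19), the one near ekl-5 (54 and 30), nhr-14 (26 and 100, in an intron) and serp-1.1 (83 and 69). WGATAR was within 50 bp of the centre of 2 of these 16, those near R03E9.2 and mdl-1. Over all X members the share was 39.4%, and in their control windows 25.4%. The 16 are few, and their difference from these shares was not tested.

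**Figure D5:**
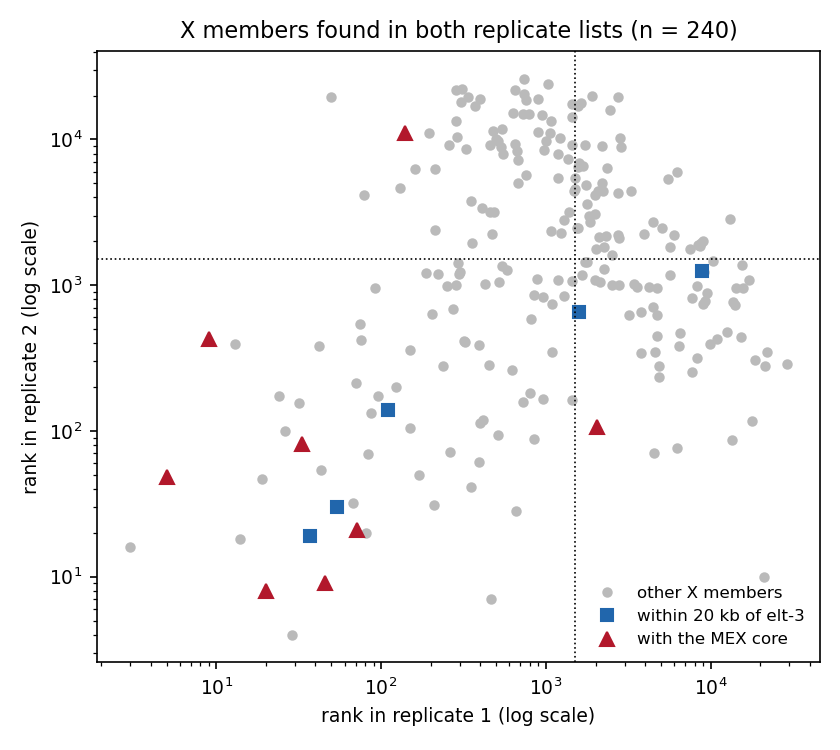
Rank of each X member in replicate 1 and replicate 2 (both axes logarithmic), for the 240 members with a summit within 100 bp in both lists. Triangles mark members with the MEX core, squares those within 20 kb of elt-3, and dotted lines rank 1500. Ranks scatter widely, and 6 of the triangles lie within rank 500 of both lists.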

How the data were processed

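Regions were taken from peak lists that the authors deposited for each of 2 biological replicates, for both pooled, and after an irreproducible discovery rate (IDR) filter. The signal of each region is the authors' deposited value, and its scaling is not stated. The −log10 q-value, also deposited, was not used. The sources used here do not give the aligner, the peak caller, the IDR threshold or the read depth. The README text of the deposit describes the replicate and pooled lists as peaks with background regions.

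Coordinates are 1-based on ce11. Genes are those of Ensembl release 115 (19973 protein-coding), and sequences RefSeq's WBcel235. Regions were placed by the deposited summit, called the centre. Shares were compared by two-sided Fisher's exact test or the exact McNemar test, with Benjamini-Hochberg adjustment within each family and a threshold of 0.05 (Python 3.11.15, SciPy 1.17.1, pandas 2.3.3). Intervals are 95% Wilson intervals for shares, score intervals for differences and exact conditional intervals for odds ratios. The limit for a count of 0 is 3 counts. The search of 8-mers was tested on simulated random sequence with a planted word. The planted shares were larger than those found here, so recovery of words this rare was not tested.

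The members, lists and motifs were chosen with earlier results of these data known. Genes were named for the 15 strongest X members, genes with 3 or more members, members within 20 kb of elt-3, the 3 largest groups, up to 5 genes per list, members in the 100 strongest of both replicates, and those at the threshold.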

Additional observations from a re-analysis of the deposited data

How the results depend on the processing

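Leaving out a replicate means ranking the other replicate's own list. The differences between X members and other regions, in percentage points, are by two-sided Fisher's exact or exact McNemar test. The MEX core against autosomal members kept its direction and passed under all 11 alternatives, the GATA motif at centres against control windows under all 11, the GATA motif against weaker X regions under all 10, and the promoter share against weaker X regions under all 9. Some of these moved by over 1.5 times: the MEX core to 1.84 points within 25 bp, 6.04 with 1 mismatch and 9.88 in the IDR list, the GATA motif against control windows to 8.87 within 25 bp, 8.74 in the 2000 strongest and 8.83 without replicate 1, and against weaker X regions to 8.88 within 25 bp, 9.43 in the 2000 strongest and 9.60 without replicate 1, and the promoter share against weaker X regions to 5.45 without replicate 1. The promoter share against autosomal members missed the threshold under all 10. The GATA motif against autosomal members missed it at 6.35 points (1000 strongest), 4.16 (2000 strongest), 3.92 (GATAAG), 5.49 (within 100 bp), 4.47 (within 25 bp), 5.28 (without chromosome I) and 1.68 to 5.37 (with 1 replicate left out), and was reversed at -1.51 in the IDR list. The intergenic share missed it at 6.01 (1000 strongest) and 5.65 (without chromosome I), was 14.8 in the IDR list, and ran from 4.29, which missed it, to 8.19 with 1 replicate left out. The intron share, never past the threshold, was reversed at 1.81 (1000 strongest), 0.503 (without chromosome I) and ran from -2.22 to 0.301 with 1 replicate left out. The X share was 28.9% in the IDR list. Any overlap as a match put 64.5% of X members in the 1500 strongest of replicate 1. The share in groups was 25.9% in the IDR list, 55.4% chained at 10 kb, 26.0% at 2 kb, and 25.2% to 42.7% with 1 replicate left out. The cause of these changes was not tested. The setting without chromosome I and the MEX core settings were chosen after the data were seen. Depth is unknown, so a region missing from a list says nothing of absence of binding.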

Other observations

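Other short sequences recurred among the strongest X members and were picked by reading their windows, so they were not tested. CCCTTCGC, on either strand, was within 50 bp of the centre of 6 X members (1.83%), 5 of them among the 42 X members in the 100 strongest pooled regions, and of 1 of 1173 autosomal members (0.0853%), 4 of 4254 weaker X regions (0.0940%) and 2 of 327 X control windows (0.612%). The members near ZK899.6 and K02D3.1 were among those with it, and 2 of the 6 had the MEX core. Its shorter form CCTTCGC was at 9 X members (2.75%), 7 autosomal members (0.597%), 12 weaker X regions (0.282%) and 2 X control windows (0.612%). CCCCTGCC was at 4 X members (1.22%), 3 of them among the same 42 and 1 with the core, at 1 weaker X region and at none of the 1173 autosomal members, a count that allows up to 0.256%.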
